A study of Mus musculus with 4 samples.

Results

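A set of 8 genes that mark or shape dendritic cells were followed in mouse bone marrow cells grown with either of a pair of myeloid growth factors. They are the transcription factors Zbtb46, Bcl11a, Id2, Batf3 and Tcf4, the growth factor receptor Flt3, and the surface proteins Cd24a and Dpp4. Each was taken as the probe set whose only platform gene symbol is that gene, and each of the 8 had exactly 1 such probe set, out of 19938 genes on the array. GM-CSF cells were grown from C57BL/6J marrow for 7 days with granulocyte-macrophage colony-stimulating factor, got the name M1 from the submitters, and passed a sort for CD45+, MHC class II+, F4/80+ and CD8a-. M-CSF cells were grown from C57BL/6J marrow for 7 days with L929 cell supernatant as the source of macrophage colony-stimulating factor, were named M2, and were sorted as CD45+, F4/80+ and CD11b+. The labels name no genetic change in either group, and each group had 2 arrays, 4 in all. Growth factor, supernatant and sort gate differed together and cannot be told apart. Whether replicates came from separate mice or cultures is not in the labels, and the p-values then reflect just the spread among these arrays, which for the 2 M-CSF arrays may be technical. Values are log2 expression per probe set made with RMA (robust multi-array average), a normalization in which 1 unit is 2-fold. The number of arrays limits the precision.

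Dendritic cells arise from marrow progenitors that carry Flt3, the receptor for the Flt3 ligand. Zbtb46 is a zinc finger factor of conventional dendritic cells and their committed precursors and is not made by most macrophages. Id2 blocks the DNA binding of E proteins such as Tcf4, and the balance between them parts conventional from plasmacytoid dendritic cells: Tcf4 maintains the plasmacytoid fate, Bcl11a is needed for it, and Id2 and Batf3 are needed for the CD8a+ and CD103+ conventional lineage called cDC1. Cd24a encodes a small glycosylated surface protein used to sort cDC1 and also carried by neutrophils, erythroid precursors and immature B cells, and Dpp4 encodes the surface peptidase CD26, which separates dendritic cells from monocyte-derived cells in some tissues. Marrow cultures with GM-CSF are widely used to make cells with dendritic cell features, whereas M-CSF cultures give macrophages.

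The GM-CSF arrays stood further apart from each other than the M-CSF arrays did. Across 14995 genes, the SD of the gap between replicates was 0.325 on the log2 scale in GM-CSF cells and 0.1798 in M-CSF cells, and 226 genes in GM-CSF cells and 7 in M-CSF cells lay at least 2-fold apart between replicates. Xist, a noncoding RNA that silences one X chromosome, read 11.58 in GM-CSF replicate 1 and 4.93 in replicate 2, against 4.53 and 4.80 in M-CSF cells. Eif2s3y, a Y-linked gene, read 3.66 in GM-CSF replicate 1 and 9.10 in replicate 2, against 9.32 and 9.17 in M-CSF cells. GM-CSF replicate 1 thus differed in Xist and in a Y-linked gene from the other 3 arrays, so the GM-CSF arrays were not repeats of one RNA, and sex is not balanced between the groups. The part of sex in the differences below was not tested. The macrophage label was set beside 14 macrophage genes on the array, and all 14 had means above background in both groups. Background was taken as the 95th percentile of 1027 olfactory receptor genes, which averaged 5.90 on the log2 scale over the arrays. Adgre1, which encodes F4/80, read 12.32 and 12.61 in GM-CSF cells, against 12.73 and 12.79 in M-CSF cells. F4/80 was used to sort both groups, and CD11b, encoded by Itgam of the same list, to sort the M-CSF cells. Adgre1 in both groups and Itgam in M-CSF cells are therefore no independent evidence for the label.

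RefSeq promoter windows are shown for Bcl11a, the member that was lower in GM-CSF cells, for Id2, a member that was higher, and for Batf3, because Bcl11a and Batf3 hold a STAT-type motif and STAT5 carries the GM-CSF signal. Each window runs from 250 bases before to 50 bases after the annotated start (build GRCm38.p6), and capitals mark the motif.
Bcl11a (chr11:24080445-24080744, plus strand): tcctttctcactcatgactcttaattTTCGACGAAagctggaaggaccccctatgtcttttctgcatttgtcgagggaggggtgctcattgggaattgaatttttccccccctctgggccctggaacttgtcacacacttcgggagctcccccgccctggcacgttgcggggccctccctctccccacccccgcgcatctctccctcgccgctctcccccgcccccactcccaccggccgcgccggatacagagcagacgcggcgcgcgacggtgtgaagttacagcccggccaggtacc
Batf3 (chr1:191098164-191098463, plus strand): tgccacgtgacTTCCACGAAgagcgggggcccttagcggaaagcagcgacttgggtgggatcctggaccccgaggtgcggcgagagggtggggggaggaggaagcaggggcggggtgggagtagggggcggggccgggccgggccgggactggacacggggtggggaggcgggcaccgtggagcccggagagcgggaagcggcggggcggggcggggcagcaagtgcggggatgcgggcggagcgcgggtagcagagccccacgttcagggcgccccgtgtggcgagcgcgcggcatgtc
Id2 (chr12:25096043-25096342, minus strand): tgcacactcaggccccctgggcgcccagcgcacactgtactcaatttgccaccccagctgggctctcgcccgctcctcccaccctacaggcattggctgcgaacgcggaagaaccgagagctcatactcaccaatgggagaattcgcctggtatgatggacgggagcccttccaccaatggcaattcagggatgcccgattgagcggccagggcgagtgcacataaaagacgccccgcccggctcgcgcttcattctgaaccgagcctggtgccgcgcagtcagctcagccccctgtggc

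The motif searched was TTCNNNGAA, which reads the same on both strands. It began 224 bases before the start of Bcl11a and 239 bases before that of Batf3. It was in 2 of the 6 members whose promoter was listed and in 8.30% of all 32851 promoter windows. The Id2, Zbtb46, Flt3 and Dpp4 windows did not hold these letters, and Cd24a and Tcf4 had no window here. The AP-1 motif TGANTCA, to which Batf factors bind with Jun partners, stood 61 bases before the annotated start of Zbtb46 and in 7.81% of all windows. The E-protein motif CAGGTG, searched on both strands, stood 238 bases before that annotated start and in 20.2% of all windows. The Zbtb46 window held 1 CG dinucleotide, beside a median of 7 over all windows. Whether Zbtb46 is transcribed from this annotated start was not tested. Neither motif was in the other 5 members' windows, and these motifs do not overlap one another. A match is a string of letters and not evidence that a factor binds there.

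Cd24a and Id2 were higher and Bcl11a was lower in GM-CSF cells, and the other 5 members did not pass the test (limma over all 14995 genes, Benjamini-Hochberg adjusted p under 0.05). All 8 members passed the filter on dim genes, and 3 of 8 were called, beside 10.7% of all genes tested. By direction, 2 members were higher, beside 6.18% of all genes, and 1 was lower, beside 4.53%. At an unadjusted p under 0.05 with limma, 1927 of the 14995 genes were higher and 1894 lower. The unadjusted counts of gene lists given below are to be read beside these. The members' median log2 difference was -0.11, and that of all genes tested was -0.01. Both GM-CSF arrays lay on one side of both M-CSF arrays for all 8 members, as they did for 55.4% of all genes tested. For the 5 members that were not called the space between the groups was only 0.03 to 0.12 on the log2 scale. Differences are GM-CSF minus M-CSF on the log2 scale, and folds are powers of them.

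**Figure D1:**
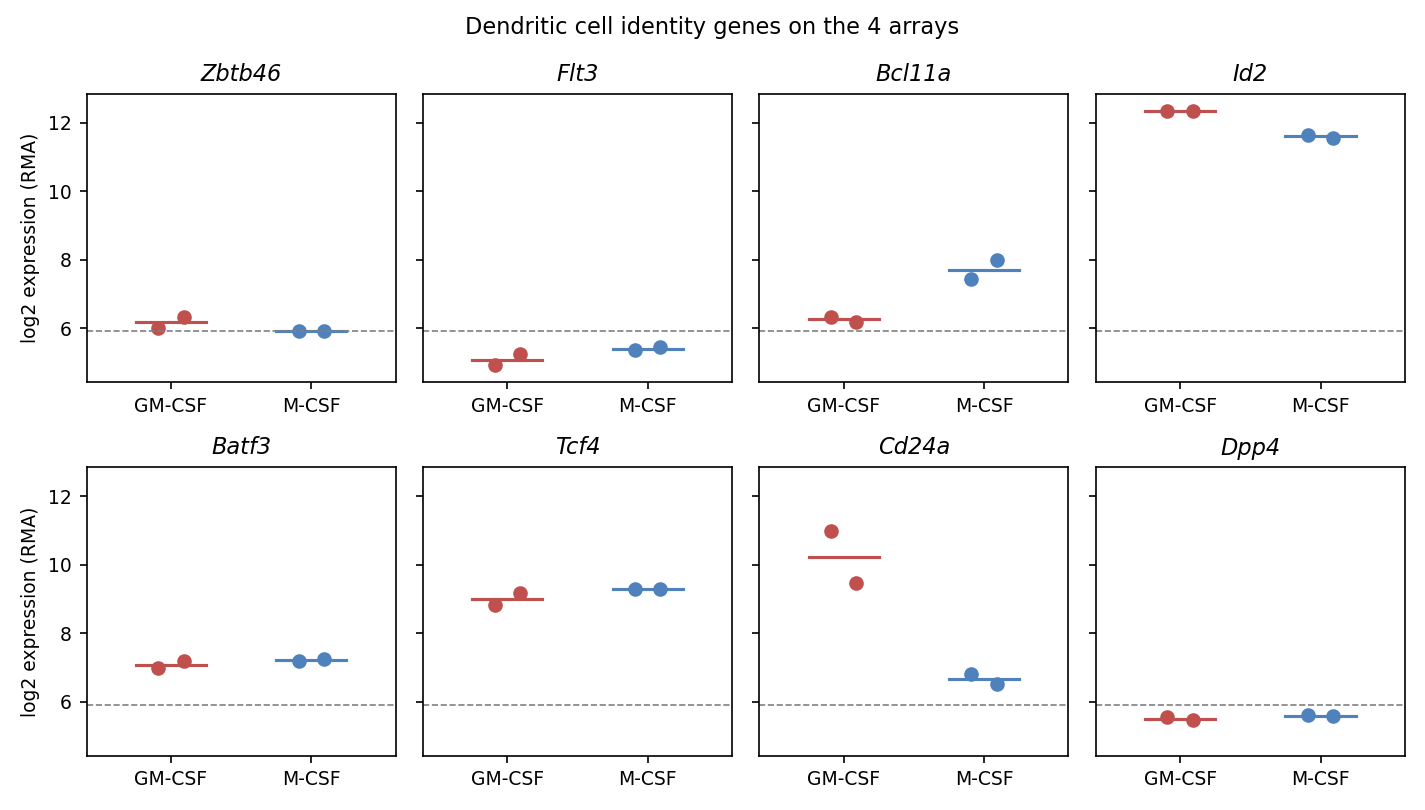
Log2 expression of each member (y axis, RMA values) on the GM-CSF arrays (red) and the M-CSF arrays (blue). Points are arrays, short lines are group means and the dashed line is the olfactory receptor background of 5.90. Cd24a lies far higher in GM-CSF cells, Bcl11a lower, and Flt3 and Dpp4 lie under the line in both groups.

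Among the surface proteins, Cd24a had the largest difference of the 8. It read 10.98 and 9.46 in GM-CSF cells, against 6.81 and 6.53 in M-CSF cells. Both GM-CSF values lay well above both M-CSF values, but the GM-CSF replicates were themselves 1.53 apart, a gap wider than that of 99.4% of the genes tested. The difference was 3.55 ± 0.45 (SE, n = 2 per group), or 11.7-fold, with a 95% interval of 2.45 to 4.66 and an adjusted p of 0.0062 from limma. Dropping GM-CSF replicate 1 gave 2.79 and dropping replicate 2 gave 4.32. Dropping either M-CSF array ended the call (limma adjusted p of 0.106 for replicate 1 and 0.126 for replicate 2), and so did trended and robust variances (0.0992). In the mouse, Cd24a has processed copies that the probes may not part from it.

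Cells other than dendritic cells carry Cd24a, so the markers of those cells are set beside it. Of 10 neutrophil markers, 5 had means above background in each group. The summed unlogged level of the list was 1404 and 648 in GM-CSF cells, against 880 and 766 in M-CSF cells, so it was highest on the array where Cd24a was highest and lowest on the other GM-CSF array. Ly6g, the defining surface marker of neutrophils, had a mean within background in both groups, and read 6.18 and 5.45 in GM-CSF cells, against 4.49 and 5.10 in M-CSF cells. Of 8 tested neutrophil markers, 5 had positive differences, and the median was 0.08. Ly6g passed the filter on dim genes only through its GM-CSF arrays. Its difference was 1.02, or 0.65 and 1.39 with GM-CSF replicates 1 and 2 dropped. For S100a8 the difference was 0.89, or 0.14 and 1.64 with those arrays dropped. Mpo, the neutrophil granule peroxidase, was the only neutrophil marker called over the 4 arrays. Mpo was lower in GM-CSF cells (-0.64 ± 0.10 SE), where its mean was within background. Its call ended with either M-CSF array dropped (limma adjusted p of 0.160 and 0.163). The summed level of 9 B cell markers was 677 and 789 in GM-CSF cells, against 1663 and 1735 in M-CSF cells. Without Cd79b the other 8 summed to 470 and 542 in GM-CSF cells, against 520 and 550 in M-CSF cells. That of 5 erythroid markers ran from 205 to 218 in GM-CSF cells and from 213 to 219 in M-CSF cells. The part of other cells in the Cd24a difference was not tested. On bulk RNA, more cells of a type and more RNA per cell cannot be told apart.

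Dpp4, the CD26 peptidase, was not seen above background. It read 5.54 and 5.47 in GM-CSF cells, against 5.60 and 5.57 in M-CSF cells. All 4 values lay under the olfactory receptor level and close together. The difference was -0.08 with a 95% interval of -0.33 to 0.18, and the adjusted p from limma was 0.724. Among its relatives, the intracellular peptidases Dpp7, Dpp8 and Dpp9 were above background in both groups and not called, with differences of 0.24, -0.41 and 0.09.

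Id2, the inhibitor of E proteins, was higher in GM-CSF cells with the tightest replicates of the 8 members in that group. It read 12.34 and 12.35 in GM-CSF cells, against 11.64 and 11.55 in M-CSF cells. The GM-CSF pair differed by only 0.008, and only 3.20% of genes had a smaller gap, and neither group reached into the other. The difference was 0.75 ± 0.105 (SE, n = 2 per group), or 1.68-fold, with a 95% interval of 0.49 to 1.003 and an adjusted p of 0.0085 from limma. Leaving out 1 array at a time moved it only between 0.70 and 0.79. Dropping M-CSF replicate 1 or replicate 2 ended the call (limma adjusted p of 0.107 and 0.137), although the difference hardly moved.

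Tcf4, the E protein of plasmacytoid dendritic cells, was well above background in both groups. It read 8.83 and 9.16 in GM-CSF cells, against 9.28 and 9.29 in M-CSF cells. The GM-CSF values lay a little under the M-CSF values and were 0.34 apart. The difference was -0.29 ± 0.14 (SE, n = 2 per group), with a 95% interval of -0.63 to 0.04 and an adjusted p of 0.258 from limma. Without GM-CSF replicate 2 it was -0.46 and passed (adjusted p = 0.0221 with limma), and without GM-CSF replicate 1 it was -0.13 and did not (0.620).

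Of the 7 genes of the Id and E-protein families, Id2 alone was called in this test. Id1 and Id4, other members of the inhibitor family, differed by 0.20 and 0.07, and Id3 lay within background in both groups. The E-protein genes Tcf3 and Tcf12 differed by -0.23 and 0.24. The list had a median difference of 0.07, beside -0.01 over all genes tested. At an unadjusted p under 0.05, 1 of the 7 was higher and 0 were lower. With GM-CSF replicate 2 dropped, Tcf4 and Id3 were called lower too.

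Bcl11a, a zinc finger factor of plasmacytoid dendritic cells and B cells, was lower in GM-CSF cells. It read 6.34 and 6.18 in GM-CSF cells, against 7.43 and 7.98 in M-CSF cells. The GM-CSF values were close to the background of 5.90, while the M-CSF replicates were 0.55 apart, a gap wider than that of 99.1% of genes in that pair. The difference was -1.45 ± 0.19 (SE, n = 2 per group), or 2.73-fold lower, with a 95% interval of -1.92 to -0.98 and an adjusted p of 0.0070 from limma. With M-CSF replicate 1 dropped it was -1.72 and passed (limma adjusted p of 0.0307), and with replicate 2 dropped it was -1.17 and did not (0.0660). Its relative Bcl11b, a T cell factor, lay within background in both groups. Zbtb and Bcl6 relatives numbered 7 besides Zbtb46, and limma called 0 of them, with Zbtb20 alone higher at an unadjusted p under 0.05. Bcl6 differed by 0.70 with GM-CSF replicate 1 dropped and by -0.85 with replicate 2 dropped, and passed in opposite directions.

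Bcl11a is also a B cell gene, and B cell and plasmacytoid markers are set beside it. Cd79b, a signalling chain of the B cell receptor, read 7.69 and 7.95 in GM-CSF cells, against 10.16 and 10.21 in M-CSF cells. It was 5.14-fold lower in GM-CSF cells (-2.36 ± 0.13 SE, adjusted p = 0.000326 with limma) and was the only called gene among 6 tested B cell markers. Of 9 B cell markers on the array, 6 were within background in both groups, Cd79a, Ms4a1 and Ebf1 among them. Besides Cd79b, Pax5 and Cd22 had means above background in both groups, with differences of -0.05 each. The Pax5 means were close to background, at 5.93 in GM-CSF cells and 5.98 in M-CSF cells. On GM-CSF replicate 1 and M-CSF replicate 2, Pax5 lay under that array's own olfactory receptor level. Spib, a factor of plasmacytoid dendritic cells and B cells, was 1.99-fold lower in GM-CSF cells (-0.99 ± 0.14 SE), where its mean was within background, and its call ended with either M-CSF array dropped (limma adjusted p of 0.118 and 0.136). Siglech, the defining surface marker of mouse plasmacytoid dendritic cells, read 5.62 and 5.76 in GM-CSF cells, against 5.69 and 5.74 in M-CSF cells, all within background. The part of other cells in the Bcl11a difference was not tested.

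Batf3, the cDC1 factor, was above background in both groups and differed little. It read 6.97 and 7.18 in GM-CSF cells, against 7.20 and 7.25 in M-CSF cells. The groups were separated by only 0.03. The difference was -0.15 ± 0.12 (SE, n = 2 per group), with a 95% interval of -0.44 to 0.13 and an adjusted p of 0.503 from limma. Among its relatives and partners, Irf4, an interferon regulatory factor that pairs with Batf proteins, read 8.34 and 7.19 in GM-CSF cells, against 5.36 and 5.45 in M-CSF cells. Irf4 was 5.13-fold higher in GM-CSF cells (2.36 ± 0.34 SE, adjusted p = 0.0097 with limma), from an M-CSF mean within background, with the call ended by dropping M-CSF replicate 1 (0.150) or replicate 2 (0.145). Irf8, which works with Batf3 in cDC1, differed by -0.03, and Batf by -0.83 (adjusted p = 0.053 with limma). Of the 8 genes of this list, 1 was higher, 0 were lower and 7 did not pass, and at an unadjusted p under 0.05 the counts were 1 and 1. Batf was called lower with either GM-CSF array dropped (limma adjusted p of 0.0125 and 1.22e-05).

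**Figure D2:**
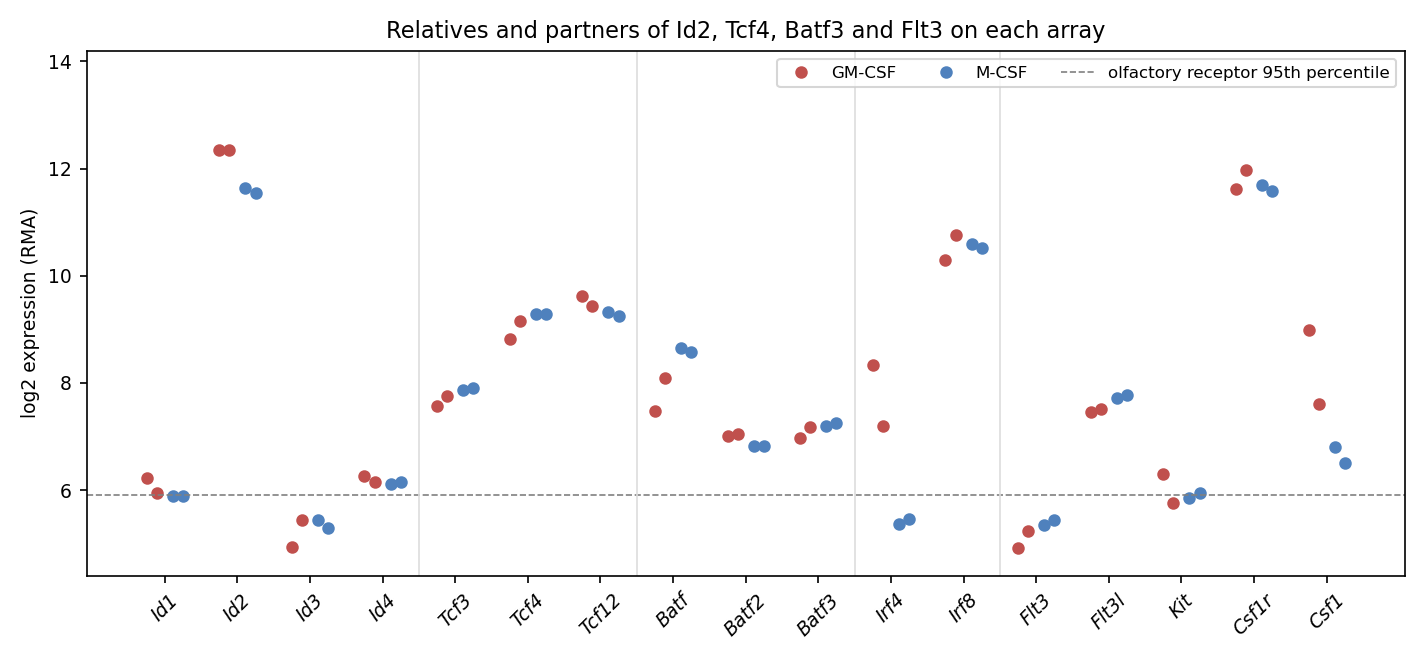
Log2 expression (y axis, RMA values) of relatives and partners of Id2, Tcf4, Batf3 and Flt3 on the GM-CSF arrays (red) and M-CSF arrays (blue), with the olfactory receptor background as a dashed line. Id2 and Irf4 are the called genes, and both lie higher in GM-CSF cells.

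Zbtb46, the factor of committed conventional dendritic cells, lay close to background. It read 6.01 and 6.32 in GM-CSF cells, against 5.93 and 5.91 in M-CSF cells. The M-CSF mean was 5.92, beside the background of 5.90. M-CSF replicate 2 lay under that array's own olfactory receptor level of 6.06. The higher GM-CSF array stood 0.31 above the other one, a gap wider than the difference between the groups. That difference was 0.25, with a 95% interval of -0.08 to 0.58 and an adjusted p of 0.323 from limma, so the interval allows a level up to 1.49-fold higher in GM-CSF cells. The 7 Zbtb and Bcl6 relatives had differences from -0.12 to 0.50.

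Flt3, the receptor of dendritic cell progenitors, lay within background on all 4 arrays. It read 4.93 and 5.24 in GM-CSF cells, against 5.36 and 5.44 in M-CSF cells. It passed the filter on dim genes only through its M-CSF arrays. The difference was -0.32, with a 95% interval of -0.65 to 0.02 and an adjusted p of 0.215 from limma, and it passed without GM-CSF replicate 2 (-0.47, adjusted p = 0.0204 with limma). Flt3l, its ligand, read 7.46 and 7.52 in GM-CSF cells, against 7.71 and 7.78 in M-CSF cells, and was not called. Csf1, the gene of M-CSF itself, read 8.99 and 7.61 in GM-CSF cells, against 6.81 and 6.50 in M-CSF cells, with an adjusted p of 0.058 from limma. Of 7 tested genes among Flt3, related receptors and their ligands, 0 were called by limma, and at an unadjusted p under 0.05 there were 2 higher and 2 lower. With GM-CSF replicate 1 or 2 dropped, 2 and 3 of them were called higher, Csf1 each time.

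**Figure D3:**
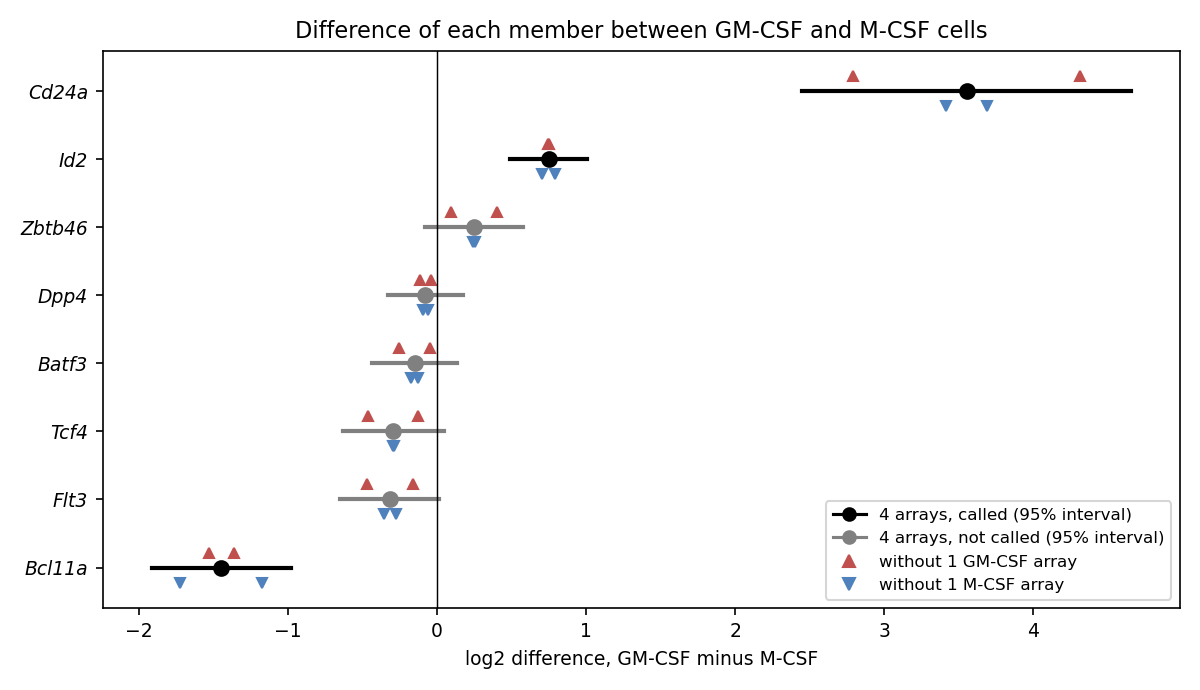
Log2 difference of each member, GM-CSF minus M-CSF (x axis). Circles are the fit of 4 arrays with 95% intervals (black where called, grey where not), red triangles are fits without 1 GM-CSF array and blue triangles fits without 1 M-CSF array. No member changes sign, and Cd24a spreads most, from 2.79 to 4.32.

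In order of difference the members ran from Cd24a (3.55) through Id2 (0.75), Zbtb46 (0.25), Dpp4 (-0.08), Batf3 (-0.15), Tcf4 (-0.29) and Flt3 (-0.32) to Bcl11a (-1.45). The 95% interval of Cd24a lay above that of Id2, and the interval of Bcl11a lay below that of Flt3. The intervals of Id2 and Zbtb46 overlapped, as did those of each neighbouring pair from Zbtb46 to Flt3. In Cd24a, Id2 and Bcl11a the group difference exceeded the gap between the GM-CSF replicates, and in Zbtb46, Batf3 and Tcf4 it did not. In Flt3 and Dpp4 it was about as large as that gap.

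**Figure D4:**
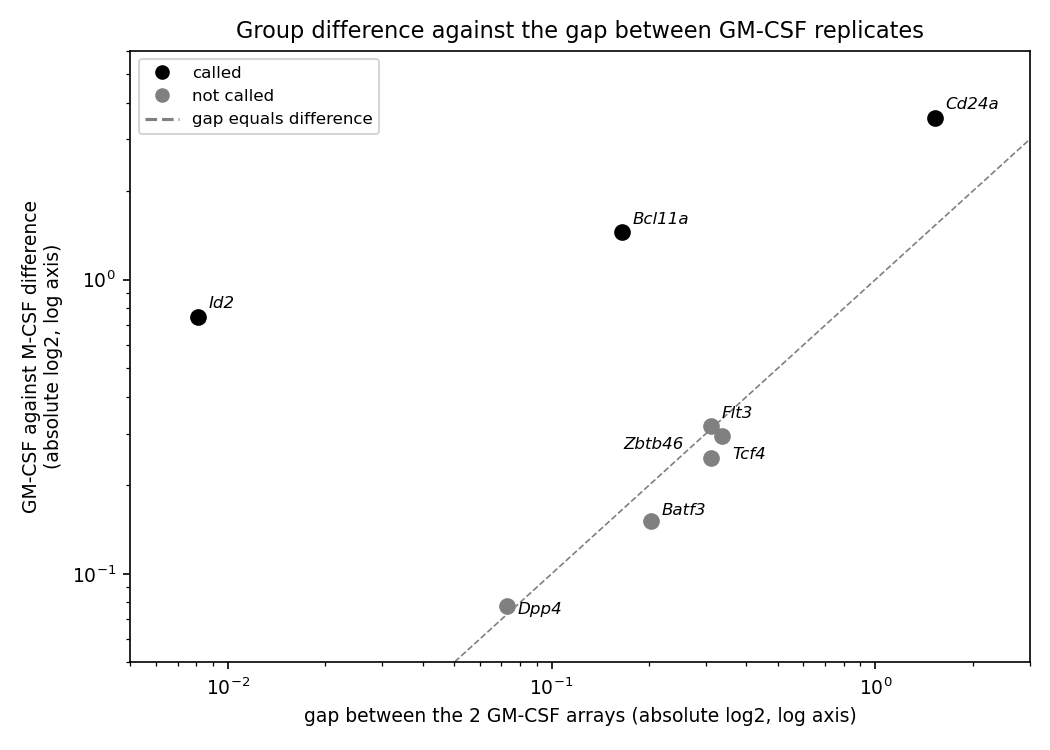
Absolute log2 difference between groups (y axis, log scale) against the absolute log2 gap between the GM-CSF replicates (x axis, log scale), 1 point per member, black where called. The dashed line marks equality. Cd24a, Bcl11a and Id2 lie above it, and the other 5 lie on or near it.

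Bcl11a and Cd24a spanned at least 1 log2 unit over the arrays, and the genes with the nearest profile were sought for each. The likeness was the root mean square distance over the 4 arrays after each gene's mean was subtracted. Nearest to Cd24a were Chil3, a chitinase-like protein of myeloid cells (distance 0.14), and Ppbp, a platelet chemokine gene (0.23). Ppbp read 12.28 and 10.87 in GM-CSF cells, against 8.25 and 7.40 in M-CSF cells, so it too was higher on GM-CSF replicate 1 than on replicate 2. Nearest to Bcl11a were Kcnma1, a potassium channel gene (0.11), and Sik1, a salt-inducible kinase gene (0.12). Kcnma1 read 4.185 and 3.87 in GM-CSF cells, against 5.37 and 5.63 in M-CSF cells, all within background. It passed the filter on dim genes only through its M-CSF arrays, where it was higher. Sik1 read 7.95 and 7.93 in GM-CSF cells, against 9.23 and 9.47 in M-CSF cells. With 4 arrays such likeness is a description only.

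Other genes of dendritic cell programmes were read from the same fit. Of 15 regulators of conventional dendritic cells, 4 were higher in GM-CSF cells, 0 were lower and 11 did not pass. At an unadjusted p under 0.05 with limma there were 5 and 1, beside 1927 and 1894 of all 14995 genes tested. Besides Irf4, Runx3, a runt-domain factor of dendritic and T cells, read 8.55 and 8.48 in GM-CSF cells, against 6.98 and 6.90 in M-CSF cells, and was 2.98-fold higher (1.58 ± 0.11 SE, adjusted p = 0.00068 with limma). Nfil3, a factor upstream of cDC1 development, was 1.77-fold higher (0.82 ± 0.15) and Rbpj, the DNA-binding partner of Notch, 1.47-fold higher (0.56 ± 0.12, named after its value was seen). The median of the regulators was -0.02, beside -0.01 over all genes tested. With either M-CSF array dropped, 1 regulator, Runx3, was called.

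The cDC1 list, for which Id2 and Batf3 are known, held 4 higher and 1 lower among 9 tested genes. Naaa, a lysosomal amidase gene, was 7.46-fold higher in GM-CSF cells (2.90 ± 0.22 SE), Ifi205, an interferon-inducible gene with close paralogs, 7.42-fold higher (2.89 ± 0.29), and Clec9a, a receptor for dead cells, 5.43-fold higher (2.44 ± 0.24), from an M-CSF mean within background. Clec9a passed the filter on dim genes only through its GM-CSF arrays, at 7.77 and 7.04, against 5.06 and 4.87 in M-CSF cells. Ly75, the endocytic receptor DEC-205, was 5.22-fold higher and Cadm1, an adhesion molecule, 1.38-fold lower, both named after their values were seen. Xcr1, the chemokine receptor that defines cDC1, read 5.49 and 5.22 in GM-CSF cells, against 5.58 and 5.51 in M-CSF cells, all within background. Itgae, which encodes CD103, was within background in both groups, as was Cd8a, whose protein was also used to exclude cells from the GM-CSF sort. With either M-CSF array dropped, 3 genes of the list were higher and the calls of Clec9a and Cadm1 were lost.

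Markers of other dendritic cell types were mixed. Of 11 cDC2 markers, 1 was higher in GM-CSF cells, 2 were lower and 8 did not pass. With either M-CSF array dropped, the higher call stayed and both lower calls were lost, and with GM-CSF replicate 2 dropped 4 were higher. Cd1d1, a lipid-presenting molecule, was 10.05-fold higher (3.33 ± 0.23 SE), from an M-CSF mean within background. Clec4a4, the lectin DCIR2, was 3.82-fold lower (-1.93 ± 0.26, with a GM-CSF mean within background) and Clec4a2, a related lectin, 1.52-fold lower (-0.60 ± 0.12). Mgl2, a lectin of cDC2, read 9.47 and 5.87 in GM-CSF cells, against 5.91 and 6.27 in M-CSF cells, and was not called. Of 11 tested plasmacytoid markers, 0 were higher by limma, 2 were lower and 9 did not pass. At an unadjusted p under 0.05 with limma there were 0 higher and 4 lower, beside 1927 and 1894 of all 14995 genes tested. The lower calls numbered 4 with either GM-CSF array dropped, and 0 and 1 with M-CSF replicates 1 and 2 dropped. Cd4, a coreceptor found on plasmacytoid cells as well as T cells, was 3.29-fold lower in GM-CSF cells (-1.72 ± 0.17), where its mean was within background. The summed level of the plasmacytoid list was 2821 and 3909 in GM-CSF cells, against 3930 and 3958 in M-CSF cells. Tlr7, Tlr9 and Bst2, the brightest genes of the list, weigh most in this sum, and none of them was called. Tlr9 read 8.89 and 9.91 in GM-CSF cells, against 10.26 and 10.43 in M-CSF cells.

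Of 13 genes of mature dendritic cells, 5 were higher in GM-CSF cells, 1 was lower and 7 did not pass, with a median difference of 0.89. Dropping GM-CSF replicate 1 or 2 gave 8 and 7 higher and 1 lower each time, and dropping M-CSF replicate 1 or 2 gave 2 and 3 higher and 0 lower. Traf1, a signalling adaptor, was 5.49-fold higher (2.46 ± 0.15 SE). Cd200, a membrane protein that signals to myeloid cells, was 5.19-fold higher (2.38 ± 0.17), from an M-CSF mean within background. Cd200 and Socs2 passed the filter on dim genes only through their GM-CSF arrays, where they were high. Socs2, a STAT5 target, was 8.74-fold higher (3.13 ± 0.70) and read 9.33 and 6.91 in GM-CSF cells, against 4.85 and 5.13 in M-CSF cells. Its M-CSF mean was within background, its difference was 1.92 and 4.34 with GM-CSF replicates 1 and 2 dropped, and its call ended with either M-CSF array dropped (limma adjusted p of 0.307 and 0.262). The lower gene of the mature list was Cd83, named after its value was seen. It read 7.57 and 7.14 in GM-CSF cells, against 8.84 and 9.03 in M-CSF cells, and was 2.98-fold lower (-1.58 ± 0.17 SE). The 7 that did not pass were Ccl17 (2.77), Il12b (0.89), Cd40 (0.43), Cd80 (0.01), Relb (-0.05), Cd86 (-0.11) and Fscn1 (-0.13). Of 8 genes shared by monocyte-derived dendritic cells, 6 were higher and 2 did not pass, Cd209a (0.61) and Ciita (0.58). Cd209a read 6.42 and 5.44 in GM-CSF cells, against 5.23 and 5.42 in M-CSF cells. Outside the class II pathway, Itgax, which encodes CD11c, was 23.0-fold higher from an M-CSF mean within background, and Ccr2, a chemokine receptor of monocytes, 7.99-fold higher. The other 4 called genes were H2-Ab1, H2-Eb1, Cd74 and H2-Aa, which read 10.25 and 11.45 in GM-CSF cells, against 6.37 and 6.11 in M-CSF cells. MHC class II protein was used to sort the GM-CSF cells, so its genes are no independent evidence. Among macrophage markers, Cd14, a lipopolysaccharide coreceptor, was 3.16-fold higher and Pecam1, an adhesion protein, 2.96-fold lower. C1qc, a complement gene, was 2.17-fold lower (-1.11 ± 0.24 SE). C1qa and C1qb differed by -1.11 and -0.62 and were not called. Of 14 macrophage markers, 1 was higher, 2 were lower and 11 did not pass. With either M-CSF array dropped, 1 was higher and 1 lower, and with GM-CSF replicates 1 and 2 dropped, 2 and 3 were higher and 3 and 5 lower.

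**Figure D5:**
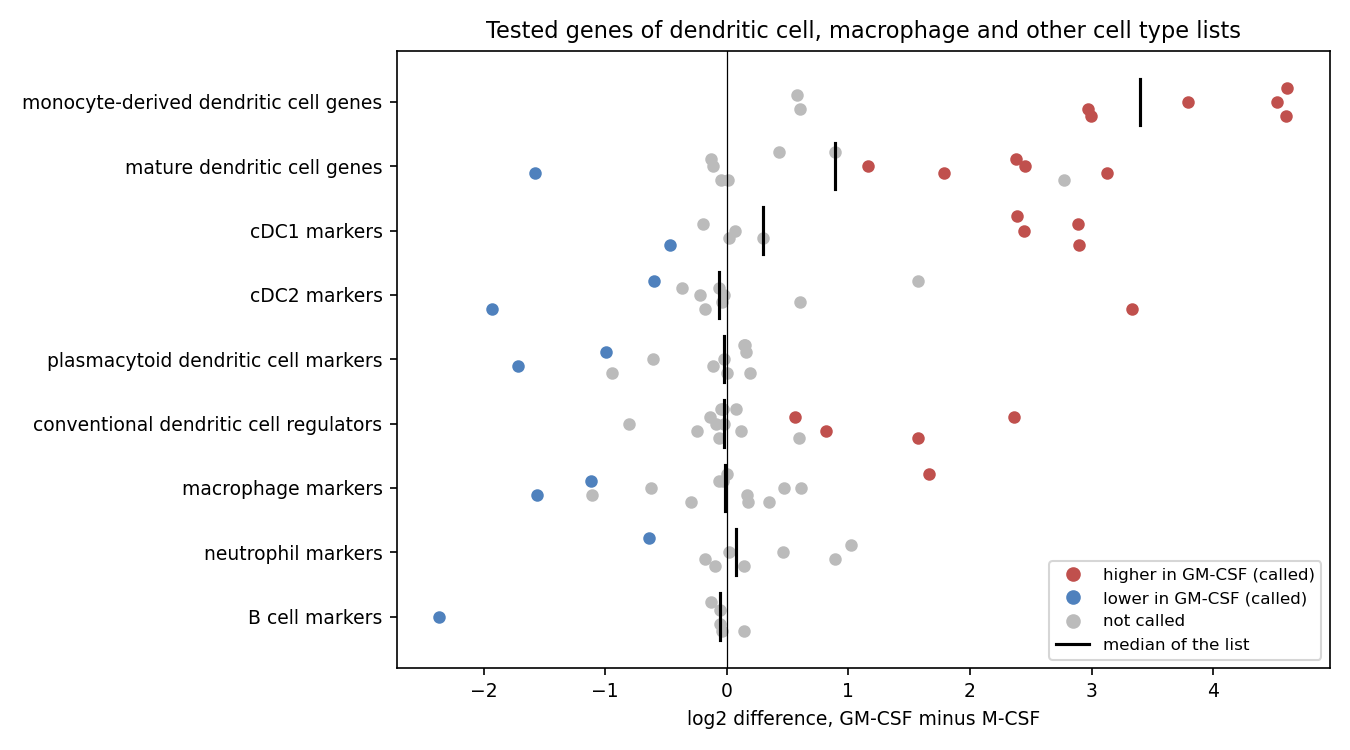
Log2 difference, GM-CSF minus M-CSF (x axis), of each tested gene in 9 lists (y axis). Red points are called higher, blue points called lower, grey points not called, and black bars are list medians. The monocyte-derived dendritic cell list has a median of 3.40, and the plasmacytoid list a median of -0.03. The former holds class II pathway genes, and MHC class II protein was used to sort the GM-CSF cells.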

How the data were processed

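RNA of 4 samples was hybridised to 1-colour Affymetrix arrays. Per the submitters' processing notes, the authors made the deposited log2 values in Affymetrix Expression Console 1.1 using RMA; the summary level and genome build are not given in the sources used here. RMA compresses differences of dim genes and brings arrays to one distribution. Of 35556 probe sets, 21789 had exactly 1 platform gene symbol, and a gene with several (999 of 19938) was taken at its brightest probe set on average. The filter on dim genes asked for 2 or more arrays over their own 30th percentile and left 14995 genes. Groups of 2 arrays were compared by limma 3.58.1 under R 4.3.3, using lmFit with eBayes and two-sided tests (residual degrees of freedom 2, prior 4.17), with Benjamini-Hochberg adjustment over all genes tested. Intervals are 95%. No batch information was used. Promoters come from RefSeq (GRCm38.p6).

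The members and lists were chosen with earlier results of these data known. Named genes are the members, the sort gate, the families of Id2, Batf3 and Flt3, nearest profiles and up to 3 called genes of each list with the largest difference, and the text leaves some out. Markers that define a cell type, relatives of the other members, genes called or summarised beside a list, Xist, Eif2s3y, Ly6g, Mgl2 and the motifs TGANTCA and CAGGTG were added after values were seen. Tables and plots used pandas 2.3.3 and matplotlib 3.10.9 under Python 3.11.15. The replicate numbers were not taken as pairs, since deviations of same-numbered arrays correlated at only 0.06.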

Additional observations from a re-analysis of the deposited data

How the results depend on the processing

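Over 93 fits of single members under other settings, 0 changed sign, 82 kept their side of the threshold, 9 lost a call and 2 gained one. Trended and robust variances left 1 member higher. The unmoderated statistic called 0 members in either direction and, of all genes, 0 higher and 1 lower, with 2 members higher and 1 lower, and 1275 and 1243 genes, at an unadjusted p under 0.05. An adjusted p under 0.01 left 438 genes higher and 223 lower. Leaving out each array in turn gave from 0 to 2 members higher and from 0 to 3 lower, and from 168 to 1683 genes higher and from 65 to 1522 lower. Fits without a GM-CSF array take their spread from the closer M-CSF pair, and the lone array of a reduced group is assumed to vary as the intact group does. The stricter filter removed Zbtb46, Flt3 and Dpp4. With the replicate block, 966 genes were higher and 674 lower, and the members called stayed at 2 and 1. No filter, the stricter filter, quantile normalization, centring on array medians and probe set means kept the member counts at 2 higher and 1 lower. Signal near background limits Flt3, Dpp4 and Zbtb46.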
